A study of Mus musculus with 2 samples.

Results

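The genes described here are 10 components of inhibin, activin and bone morphogenetic protein (BMP) signalling, taken by symbol from the 22609 genes counted in the series. They comprise the ligand genes Inha, Inhba, Inhbb and Bmp4, the genes of the secreted binding proteins Fst and Fstl1, and the receptor genes Acvr1b, Acvr2a, Acvr2b and Tgfbr3. All 10 symbols were found in both count tables, and all 10 had at least 20 reads over both libraries, the minimum for a ratio to be reported. Genes past that minimum are called tested genes below, although no significance test could be made. RNA bound to Ago2, the Argonaute protein that holds a miRNA on its mRNA targets, was immunoprecipitated from TM4 cells and sequenced. TM4 is an established mouse Sertoli cell line, derived from the somatic cells that nurse the germ cells in the testis. Cells had received either a miR-471-5p mimic, a synthetic form of the miRNA, or a scramble control, and the pull-down followed 48 h later. There was 1 library per condition, so no difference below has a replicate check and no p-value is given. Both libraries came from cells that had been transfected and pulled down with the same Ago2 antibody. RNA from before the pull-down was not analysed here, so more mRNA in the cells and more of it held by Ago2 cannot be told apart, nor can fewer cells and less RNA per cell.

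Inhibins and activins are dimers built from a shared set of subunits. Inha encodes the α subunit, Inhba the βA subunit and Inhbb the βB subunit, with an α and a β chain making an inhibin and a pair of β chains making an activin. Activins bind the type II receptors encoded by Acvr2a and Acvr2b, which then engage the type I receptor encoded by Acvr1b and signal through Smad proteins. Inhibin binds the type II receptors together with betaglycan, the product of Tgfbr3, and so keeps activin from them. Follistatin, from Fst, binds activin outside the cell. In the testis, Sertoli cells are the main source of inhibin B, the α and βB dimer that restrains FSH release from the pituitary.

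The sequences that bear on the comparison are the transfected miRNA and the places where the genes hold letters complementary to its seed. The mature miRNA, as given by RefSeq on GRCm38.p6, is 22 bases long and maps to chrX:66792634-66792655 (minus strand), with the seed (bases 2 to 8) in capitals below.

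miR-471-5p: uACGUAGUauagugcuuuucac

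A target match to bases 2 to 7 of the miRNA, called a 6mer, reads CTACGT in the sense strand of the mRNA. The 7mer-m8 match, ACTACGT, adds base 8. The 7mer-A1 match, CTACGTA, adds an A after the 6mer, and ACTACGTA, the 8mer, has both. Of the 10 genes, 2 held a 6mer in their longest annotated 3′-UTR (GENCODE M21, GRCm38), against 6.75% of tested genes with a 3′-UTR. Both sites are shown with the match in capitals. No other seed match was found in the 3′-UTRs or coding regions of the 10 genes, the parts that were searched. The Inhbb site lies in exon 2 of 2, at chr1:119416116-119416145 on the minus strand, starting at base 1189 of a 3′-UTR of 1857 bases. The Acvr2a site lies in exon 11 of 11, at chr2:48901394-48901423 on the plus strand, starting at base 1618 of 3481.

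Inhbb: gcacttgcaggtCTACGTgtgtccagaagt
Acvr2a: ctttataaacttCTACGTtactatcaggag

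None of the 10 genes held a 7mer-m8, 7mer-A1 or 8mer match in the 3′-UTR, and none held even a 6mer in the coding region. Among the 10715 tested genes with a 3′-UTR in a protein-coding transcript, 6.75% held a 6mer there, 1.55% a 7mer-m8, 1.47% a 7mer-A1 and 0.411% an 8mer. The median 3′-UTR of those genes was 1217 bases, shorter than that of Inhbb or Acvr2a, and the shares were not matched for length. In coding regions the shares over 10729 genes were 16.6% for the 6mer, 4.5% for the 7mer-m8, 1.99% for the 7mer-A1 and 0.475% for the 8mer. These are matches of letters and not measured binding sites, and pairing with mismatches was not searched.

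The libraries held 18628310 (mimic) and 18717225 (scramble) reads on genes. Levels are given as CPM, counts scaled to a common library size, and 3 reads, the most that a count of 0 allows, equal 0.161 CPM in each library. The Sertoli label was compared with a list of 20 Sertoli marker genes, of which 19 were in the tables and 7 had 20 reads or more. Vim, Kitl and Sox9 had the most reads of these, with 83153, 16163 and 1070 in the scramble library. Of the defining Sertoli genes, Fshr had 0 reads in both libraries, which allows up to 3, while Amh had 5 and 5 and Dmrt1 1 and 1. The summed Sertoli list stood at 5412 CPM in the scramble library and 7269 in the mimic library. Without Vim the order turned, with 958 in scramble and 766 in mimic, but most of that was Kitl, at 866 and 656 CPM. Of the 7 tested markers, 5 had more scaled reads in the mimic library and 2 had fewer. The 2 Sertoli markers called higher by the rule given below were Wt1, with 35 reads in scramble and 73 in mimic, and Gdnf, with 77 and 178. Among lists for other cells, peritubular myoid genes summed to 5816 CPM in scramble and 4249 in mimic (3 of 5 genes tested, Acta2, Tagln and Cnn1 the most read), and fibroblast genes to 3529 and 3969 (4 of 5, led by Col1a1, Col3a1 and Pdgfra). Within the fibroblast list Dcn stood apart, with 839 reads in scramble and 3478 in mimic, a log2 ratio of 2.05 (1.94 to 2.16). Granulosa genes summed to 37.2 and 26.6 CPM (3 of 5, mostly Wnt4), germ cell genes to 7.66 and 6.8 (3 of 7), Leydig genes to 4.77 and 4.5 (1 of 7), endothelial genes to 3.21 and 2.68 (1 of 4) and macrophage genes to 1.82 and 1.39 (1 of 4). The part of any of these differences in the values below was not tested.

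Levels were compared between genes as CPM per kb of the longest annotated transcript, and 1 gene dominated. Fstl1, which encodes a secreted glycoprotein of the follistatin family with little activin binding, stood at 682 CPM per kb in the scramble library, at percentile 99.8 of the tested genes with a known length. Tgfbr3 followed at 47.1 CPM per kb, Acvr1b at 31.3 and Fst at 22. The remaining 6 genes were lower, with Bmp4 at 7.76 CPM per kb, Acvr2a at 5.31, Inhbb at 4.78, Inha at 2.91, Acvr2b at 1.27 and Inhba at 0.788. In this order each gene exceeded the next by more than counting error, apart from Acvr2a and Inhbb, whose ratio was 1.11 (95% interval 0.973 to 1.27). The 3 inhibin and activin subunit genes lay in the lower part of the tested genes, at percentiles 31.6 for Inhbb, 23.6 for Inha and 10.4 for Inhba. The mimic library had the same order with 1 exchange, Inha at 4.43 CPM per kb coming before Inhbb at 3.95. There the neighbours in the run from Bmp4 through Acvr2a and Inha to Inhbb overlapped within counting error. Inhbb exceeded the gene after it, Acvr2b, 4.04-fold (3.04 to 5.44). Dividing by the union of all annotated exons lowered the scramble level of Fst to 14 CPM per kb and left the order as it was.

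**Figure D1:**
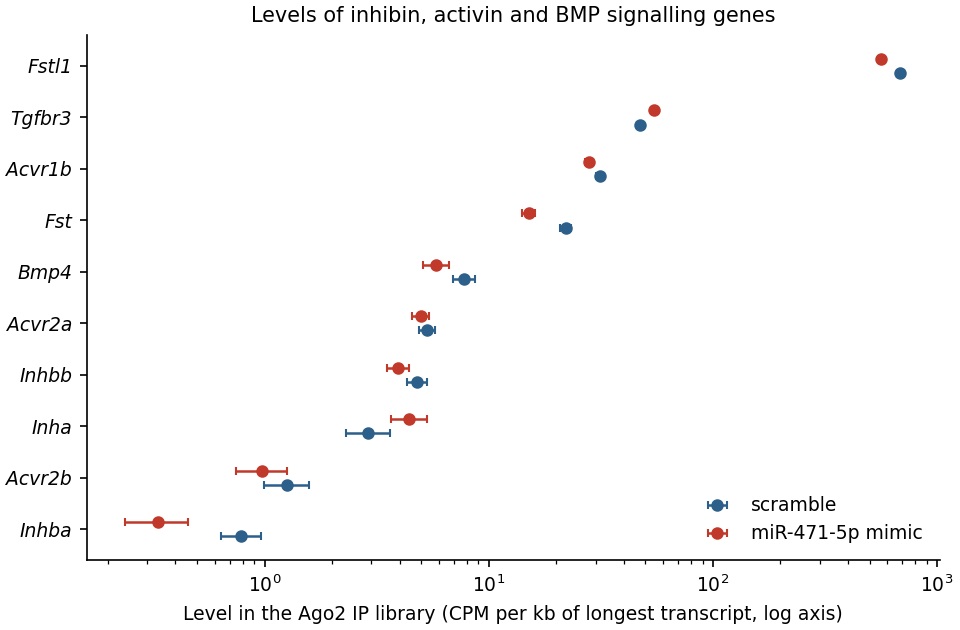
Levels of the 10 genes in each Ago2 IP library, in CPM per kb of the longest transcript on a log axis, with bars for the exact 95% Poisson interval of the counts. Fstl1 stands more than 10-fold above every other gene in both libraries, and Inhba is the lowest in both.

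The βA subunit gene Inhba showed the largest difference of the 10 genes. Inhba (chromosome 13 from 16011851 to 16031621, plus strand, in GRCm38) had 40 reads with the mimic and 94 with scramble. That is 2.14 CPM (95% Poisson interval 1.53 to 2.92) against 5.04 (4.07 to 6.16), so the intervals did not overlap. The log2 ratio of mimic to scramble, after scaling the libraries with TMM, was -1.23, with a 95% counting interval from -1.81 to -0.68, or 2.35-fold lower in the mimic library. This placed Inhba at percentile 1.88 of the 12186 tested genes.

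The α subunit gene went the other way. Inha (chromosome 1 from 75507077 to 75510366, plus strand) had 122 reads with the mimic and 80 with scramble. Its level was 6.53 CPM (5.42 to 7.8) against 4.29 (3.4 to 5.33), with intervals that did not overlap. The log2 ratio was 0.61 (95% counting interval 0.19 to 1.03), a 1.52-fold higher value in the mimic library and percentile 89.1 of the tested genes. Inha is the shortest of the 10 transcripts at 1475 bases. With the tested genes put into 10 groups by length, its group ran from 67 to 1490 bases and had a median log2 ratio of 0.43. Inha lay near the upper edge of that group, and the next group, from 1492 to 2037 bases, had a median of 0.23.

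Inhbb, for the βB subunit of inhibin B (chromosome 1 from 119415465 to 119422248, minus strand), had 314 reads with the mimic and 380 with scramble. The levels were 16.8 CPM (15 to 18.8) and 20.4 CPM (18.4 to 22.5), whose intervals overlapped. The log2 ratio of -0.28 (-0.5 to -0.06) left out equality by a small margin, and it came to -0.19 against the median of its length group. Bmp4, for a BMP ligand (chromosome 14 from 46383520 to 46390669, minus strand), had 224 and 299 reads, or 12 and 16 CPM. Its log2 ratio was -0.42 (-0.67 to -0.16), 1.34-fold lower in the mimic library. Of the 4 ligand genes, Inha was therefore the 1 with more reads in the mimic library.

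Because the α subunit is shared between inhibin A and inhibin B, the balance of the subunit mRNAs was also read within each library, where library scaling cannot enter. Inha made up 14.4% of the reads on the 3 subunit genes in the scramble library (exact 95% binomial interval 11.6 to 17.6%) and 25.6% in the mimic library (21.8 to 29.8%). The ratio of Inha reads to the summed β subunit reads was 2.04 times as high in the mimic library (exact conditional interval 1.48 to 2.83, counting error only). Transcript length does enter this ratio, because Inha is short and both β subunit transcripts are long. With each mimic count divided by the median fold of its length group, the factor was 1.42 (1.02 to 1.97). Because Inha lies near the edge of its group, this factor depends on where the groups were cut, and other cuts were not tested. Between the β subunits, Inhba took 19.8% (16.3 to 23.7%) of the reads in scramble and 11.3% (8.2 to 15.1%) in mimic, so that Inhba per Inhbb read was 0.515 times as high (0.336 to 0.779), or 0.561 times (0.367 to 0.848) after the same division. Per kb, Inhbb exceeded Inhba 6.07-fold in the scramble library and 11.8-fold in the mimic library. Both libraries therefore held more βB than βA mRNA, and the difference was wider in the mimic library.

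The proportion of follistatin to β subunit mRNA was read with and without regard to transcript length. Fst took 71.7% (69.5 to 73.9%) of the reads on Fst, Inhba and Inhbb in the scramble library and 69.9% (67.2 to 72.5%) in the mimic library. The ratio of Fst to summed β subunit reads was 0.916 times as high in the mimic library, with an interval of 0.775 to 1.08 that holds equality, although a ratio up to 1.29-fold lower lies within it. Divided by the fold of genes of similar length, the factor was 0.808, and its interval of 0.684 to 0.955 left out equality. As Fst lies near the upper edge of its length group, this factor too depends on where the groups were cut. Other cuts were not tested. The shares of reads given first rest on counts and, unlike the levels per kb, are weighted by transcript length.

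**Figure D2:**
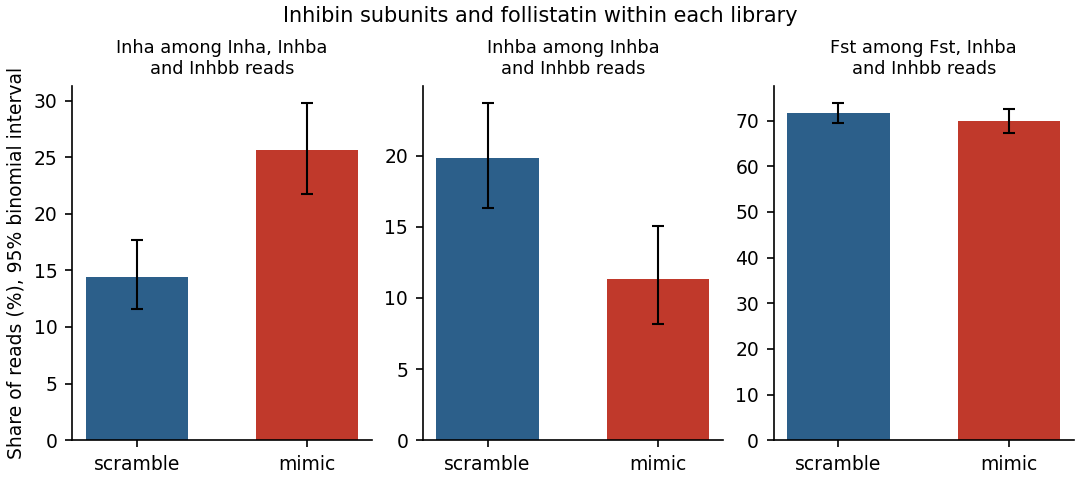
Share of reads (%) within each library taken by Inha among the 3 subunit genes, by Inhba among the β subunit genes, and by Fst among Fst and the β subunit genes, with exact 95% binomial intervals that cover counting error only. The share of Inha is 25.6% in the mimic library and 14.4% in scramble, the share of Inhba is 11.3% and 19.8%, and the share of Fst is 69.9% and 71.7%, all without regard to transcript length.

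Both genes for secreted binding proteins had fewer reads in the mimic library. Fst (chromosome 13 from 114452290 to 114458951, minus strand) had 822 reads with the mimic and 1202 with scramble, or 44 CPM (41.1 to 47.1) against 64.4 (60.8 to 68.1). The log2 ratio was -0.55 (-0.68 to -0.42), 1.46-fold lower and just short of 1.5-fold, at percentile 10.2 of the tested genes. Fstl1 (chromosome 16 from 37776873 to 37836514, plus strand) had 39802 and 48267 reads, or 2131 and 2585 CPM. With that depth its log2 ratio of -0.28 had the narrowest interval of the 10 genes, -0.3 to -0.26, which corresponds to 17.6% fewer scaled reads. Fstl1 and Inhbb thus had nearly the same log2 ratio, while the interval of Inhbb was far wider.

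Among the receptor genes, Tgfbr3 was higher in the mimic library and the other 3 had values below 0. Tgfbr3 (chromosome 5 from 107106570 to 107289629, minus strand), for the inhibin co-receptor betaglycan, had 6233 reads with the mimic and 5350 with scramble. That is 334 CPM (325 to 342) against 287 (279 to 294), a log2 ratio of 0.22 (0.17 to 0.27) or 1.16-fold. Acvr1b, for the activin type I receptor ALK4 (chromosome 15 from 101174067 to 101213684, plus strand), had 2312 and 2584 reads, or 124 and 138 CPM. Its log2 ratio was -0.16 (-0.24 to -0.08), which is 10.6% lower.

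For both type II receptors the counting interval held equality. Acvr2a (chromosome 2 from 48814109 to 48903269, plus strand) had 529 reads with the mimic and 564 with scramble, or 28.3 and 30.2 CPM. Its log2 ratio was -0.09, with an interval from -0.27 to 0.08, or 0.831-fold to 1.06-fold. Acvr2b (chromosome 9 from 119402118 to 119434995, plus strand) had 58 and 75 reads, or 3.11 and 4.02 CPM. Its log2 ratio was -0.37, and the interval from -0.89 to 0.14 is wider, so a difference in Acvr2b was not detectable at this depth. Reads of Tgfbr3 per read of both type II receptors were 8.37 in the scramble library and 10.6 in the mimic library, a ratio 1.27 times as high (1.13 to 1.43). Acvr2a was the more abundant type II receptor, 4.2-fold over Acvr2b per kb in scramble and 5.09-fold in mimic, and the change in this proportion, by a factor of 1.21 (0.831 to 1.78), held equality.

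Some of these counts share positions with other genes in GENCODE M21, and the strand setting of the counting is not given in the sources used here. Acvr2a shares 446 exonic bases with Orc4 on the opposite strand, and Orc4 had 873 and 875 reads. Bmp4 shares 89 exonic bases with Gm15217 on the opposite strand, which had 1 and 3 reads. Fst shares 115 exonic bases with the antisense gene Gm47040 and Tgfbr3 297 with Gm43422 on its own strand, neither of which is listed in the count tables. Reads from such stretches may have been assigned to neither gene or to the wrong one, so the levels of these 4 genes are uncertain to that extent.

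The number of large differences among the 10 genes was read against all tested genes. A gene was called higher or lower where its ratio was at least 1.5-fold (0.585 on the log2 scale) and its counting interval left out equality. By this rule 1 of 10 genes, Inha, was higher in the mimic library, where the background over all tested genes was 10.3% (1256 of 12186). Likewise 1 of 10, Inhba, was lower, against a background of 8.1% (987 of 12186). Both shares are close to the background. By sign alone, 8 of the 10 log2 ratios were below 0 and their median was -0.28, while the median over all tested genes was -0.00063 and 6100 of them were below 0. Both calls rest on few reads: Inha lay just past the fold, and with a fold of 2 only Inhba was called.

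**Figure D3:**
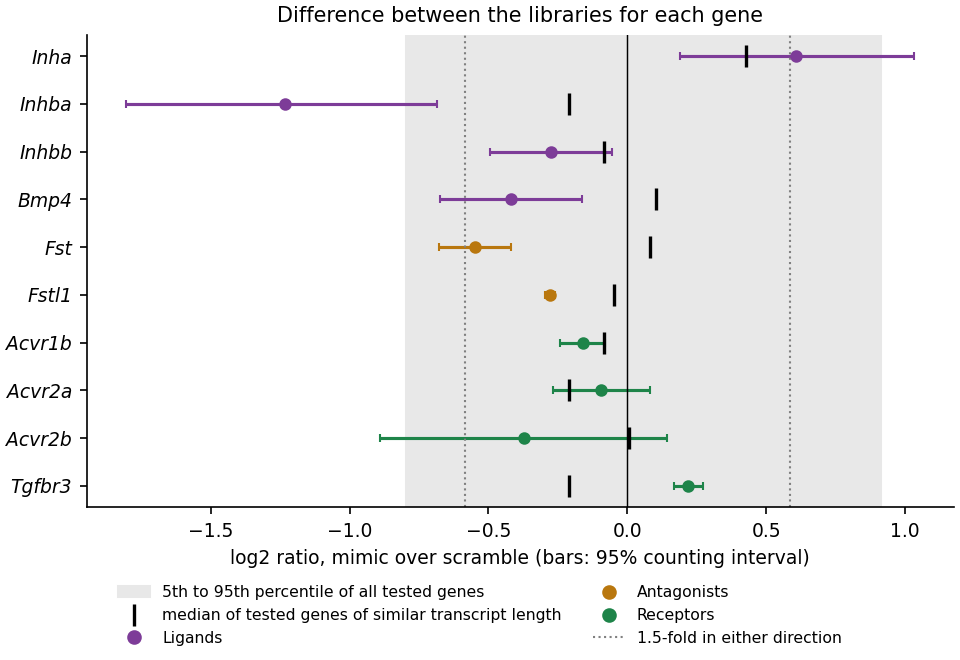
Log2 ratio of mimic to scramble for each gene, by role, with 95% counting intervals. Dotted lines mark 1.5-fold in either direction, the grey band runs from the 5th to the 95th percentile of all tested genes (-0.8 to 0.91), and black ticks give the median of tested genes of similar transcript length. Inhba at -1.23 lies outside the band, and Inha at 0.61 lies near the tick for its length group at 0.43.

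The length of a transcript moved with the ratio across the whole data set, and the 10 genes differ in length by more than 4-fold. The 10991 tested genes with a known length were put into 10 groups by length. The median log2 ratio was 0.43 in the group with the shortest transcripts, 0.01 and -0.05 in the middle groups, and -0.25 in the group with the longest. Set against the median of its own length group, Inha stood at 0.18, short of the fold. Inha lies near the upper edge of that group, so this value depends on where the groups were cut. Inhba remained at -1.02, although its 6390 bases put it in a group with a median of -0.21. Fst moved to -0.63 and so past the fold, and Bmp4, with a short transcript of 2064 bases, moved to -0.52. Tgfbr3, with 6087 bases, moved to 0.43, and Acvr2a changed sign from -0.09 to 0.12. With this centring none of the 10 genes was called higher, while Inhba and Fst were called lower.

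**Figure D4:**
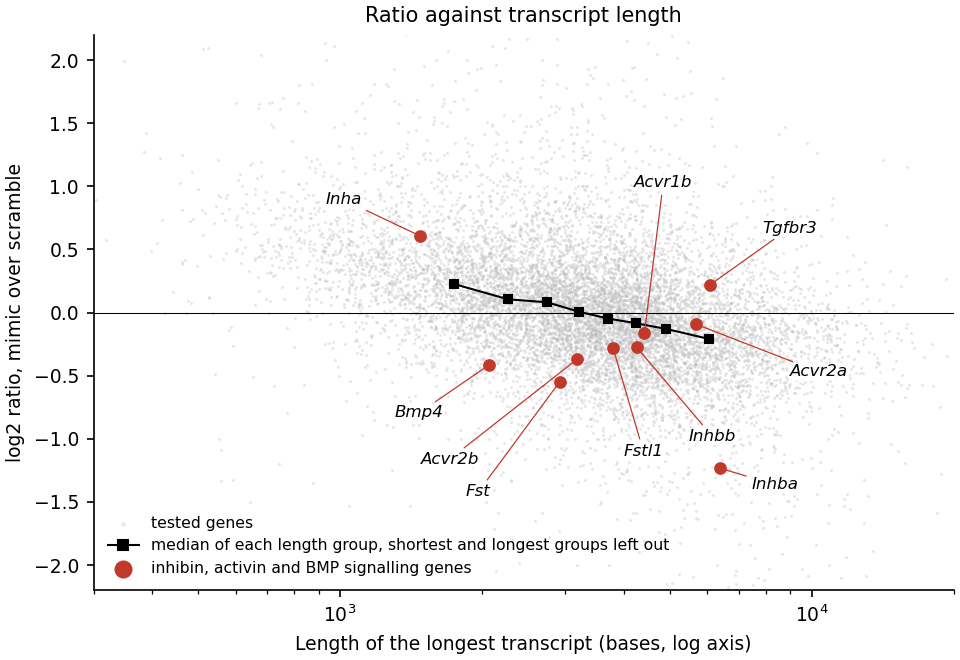
Log2 ratio of mimic to scramble against the length of the longest transcript (bases, log axis) for 10877 tested genes in grey, with 114 more outside the axes, and the 10 genes in red. Black squares are medians of groups of similar length, from 0.23 in the second to -0.21 in the ninth. Inhba at -1.23 and Fst at -0.55 lie below the medians, and Tgfbr3 at 0.22 lies above the median of its own length group, -0.21.

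The rest of the pathway was read from lists of 120 further genes, of which 78 had enough reads to be tested. Of these, 7 were at least 1.5-fold higher in the mimic library and 7 at least 1.5-fold lower, or 8.97% in each direction, close to the background of 10.3% higher and 8.1% lower. Their median log2 ratio was 0.04. The counts for single lists that follow are small and are to be read against the same background. Among other ligands of the family 9 of 30 were tested, since 13 had no read in either library, and 1 was lower and 0 were higher. That gene was Gdf11, a ligand for the same type II receptors as activin, with 31 reads against 74 and a log2 ratio of -1.26 (-1.91 to -0.63). The ligands with most reads were Tgfb3, Bmp1 (a protease named with the BMPs), Tgfb1 and Tgfb2, with log2 ratios of -0.19, -0.08, 0.51 and 0.18.

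Among 8 tested receptors outside the group, 2 were lower and 0 higher, and 1 was lower and 1 higher once length was taken into account. Bmpr2, a type II BMP receptor, had 81 reads with the mimic and 257 with scramble, a log2 ratio of -1.67 (-2.05 to -1.3). Bmpr1a, a type I BMP receptor, had 3763 and 5990 reads and a log2 ratio of -0.67 (-0.73 to -0.61). The TGF-β receptors Tgfbr1, with 4013 and 2927 reads, and Tgfbr2, with 3474 and 3867, had log2 ratios of 0.45 and -0.16, and Acvr1 was at -0.04. Against genes of similar length, Bmpr2, whose transcript of 12899 bases is among the longest, stood at -1.41, Bmpr1a at -0.46, short of the fold, and Tgfbr1 at 0.66, past it.

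Of the 8 Smad genes, which carry the signal to the nucleus, all were tested, 1 was lower and 0 were higher, with a median log2 ratio of -0.36. Smad5, which acts downstream of BMP receptors, had 2920 reads with the mimic and 5253 with scramble, a log2 ratio of -0.85 (-0.91 to -0.78), or -0.64 against genes of similar length. The inhibitory Smad6 was at -0.48 and the shared partner Smad4 at -0.38, while the inhibitory Smad7 was at 0.08. Smad regulators numbered 15, all tested, with 1 lower and 0 higher and a median of 0.09. The lower gene was Zfyve16 at -0.6, which came to -0.39 against genes of similar length, and the most read were Fkbp1a at 0.1, Ski at -0.09, Smurf2 at -0.31 and Tgif1 at 0.54.

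Extracellular antagonists and binding proteins other than Fst and Fstl1 included 13 tested genes of 24, with 3 higher and 1 lower. The BMP antagonists Nbl1 and Grem1 had 692 against 359 reads and 204 against 129 reads, with log2 ratios of 0.95 (0.76 to 1.13) and 0.66 (0.34 to 0.99). Ltbp2, of the latent TGF-β binding family, was at 0.63, and Crim1, a transmembrane BMP-binding protein, was at -0.69. Among the most read genes of this list, Twsg1 was at -0.22, Ltbp3 at 0.1 and Ltbp1 at 0.06. Among co-receptors 5 of 10 were tested, and 1 was higher, Eng, for the co-receptor endoglin, with 179 and 106 reads and a log2 ratio of 0.76 (0.4 to 1.12). Lrrc32, Rgma, Rgmb and the decoy receptor gene Bambi were at 0.27, 0.19, 0.2 and -0.32. Of the 4 convertases that cut the ligand precursors, 3 were tested and 1 was lower, Pcsk6 at -1.81 (-2.53 to -1.14) from 24 and 84 reads, while Furin was at -0.49 from 2523 and 3546 and Pcsk7 at -0.36.

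Of 20 known transcriptional targets of the pathway, 17 were tested, 3 were higher and 0 lower, and the median log2 ratio was 0.01, with 9 values above 0 and 8 below. The higher genes included Junb with 13122 and 5779 reads and a log2 ratio of 1.18 (1.14 to 1.23), and Cdkn1a with 6143 and 2974 and 1.05 (0.98 to 1.11). Id3, a direct BMP target with 10396 and 10321 reads, had a log2 ratio of 0.01, or -0.42 against genes of similar length. The other Id genes of the list had values below 0 that were short of the fold, with Id1 at -0.26 (-0.33 to -0.19), Id2 at -0.43 (-0.56 to -0.31) and Id4 at -0.28 (-0.49 to -0.07). Against genes of similar length Id1 stood at -0.68 and Id2 at -0.66, both past the fold, and Id4 at -0.23. Col1a1 and Fn1, targets of TGF-β, had -0.0035 and 0.28.

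**Figure D5:**
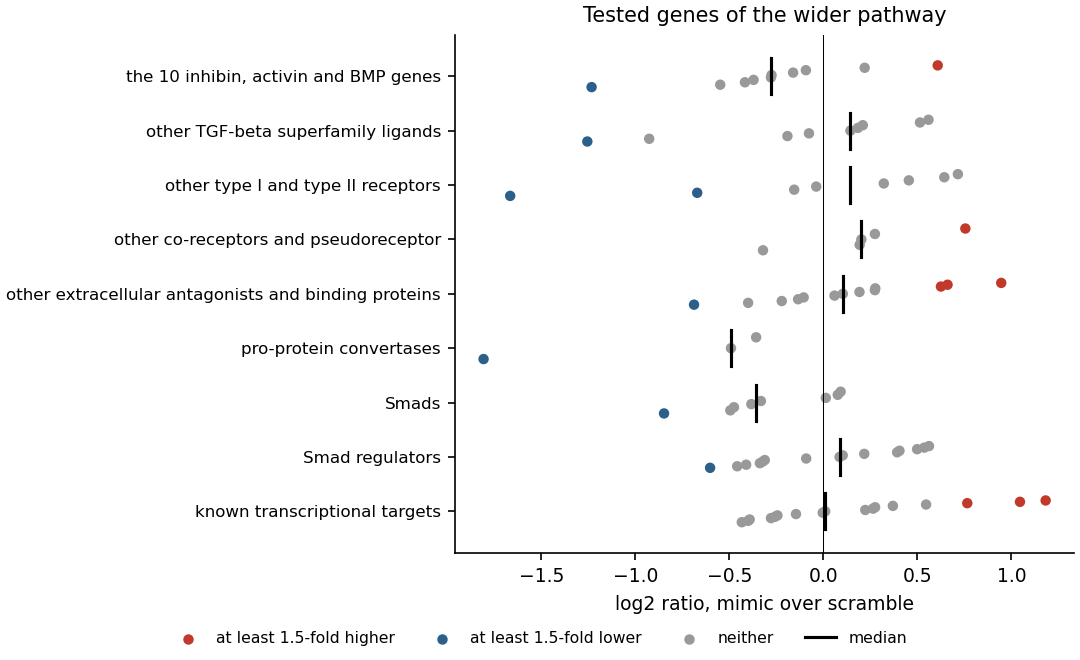
Log2 ratio of mimic to scramble for each tested gene of the group and of the 8 pathway lists, with 1 point per gene and a black bar at the median. Genes at least 1.5-fold higher or lower with a counting interval clear of equality are coloured, and they make up 7 higher and 7 lower of the 78 further genes.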

How the data were processed

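Per the labels, Ago2-bound RNA was recovered with a Magna-RIP kit and libraries followed Illumina TruSeq protocols. For each library the authors deposited 1 table of raw counts by gene symbol, whose 5 HTSeq-style summary lines were left out here. The submitters' processing notes name CASAVA 1.8.2, TopHat2 2.0.8b, HTSeq and the mouse build mm9, while the annotation, strand setting and filters are not given in the sources used here. Reads aligned to more than 1 place (39.8% of entries in mimic, 35.6% in scramble) are not counted on genes.

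TMM factors (1.0026 for mimic, 0.9974 for scramble) were computed with edgeR 4.0.16 under R 4.3.3. The quasi-likelihood test needs replicates, so only ratios are given. A minimum of 20 counts, summed over the libraries, kept 12186 of the 15973 genes with a count. Intervals are exact, Clopper-Pearson on each gene's mimic share for ratios, Poisson for levels and conditional for odds ratios. They hold counting error only, and PCR reads without molecular identifiers are not independent molecules. The calling rule and intervals were tested on simulated Poisson counts, which hold no variation between cultures or pull-downs. That test therefore checks the computation only and cannot show how the calls would repeat. Positions, lengths and 3′-UTRs are from GENCODE M21 (GRCm38), not the authors' build, matched by symbol for 10991 (90.2%) of tested genes. Python 3.11.15, scipy 1.17.1 and matplotlib 3.10.9 were used.

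The group and all lists were chosen with earlier results of these data known. Named were the 10 genes, in each pathway list up to 4 genes with the most counts and up to 3 called genes furthest from 0, and in each cell type list the 3 with the most counts. Amh, Fshr, Dmrt1, Wt1, Gdnf, Dcn, Id1, Id2, Id4, Ltbp2, Orc4, Gm15217, Gm47040 and Gm43422 were named after their values were seen. Pcsk5, with 1 count, and the low-count germ, Leydig, endothelial and macrophage genes are not described singly, and a few other genes that the rule names are not reported here. Alternatives were DESeq2 1.42.0 size factors, total counts, a fold of 2, the fold without the interval, no count filter or at least 200 counts, the union of exons as length, all coding transcripts for the seed search, and centring on genes of similar length.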

Additional observations from a re-analysis of the deposited data

How the results depend on the processing

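Of 123 values recomputed, 96 stayed within their counting interval or within 1.5 times of a count, and 27 moved. DESeq2 size factors and total counts moved no value of the 10 genes beyond those limits. Inha and Inhba, the called genes of the 10, did not change sign. The signs of called genes outside the 10 are not part of these values. Centring on genes of similar transcript length gave 0 higher and 2 lower genes of the 10. The log2 ratios became 0.18 for Inha, -0.23 for Fstl1, -0.076 for Acvr1b, 0.12 for Acvr2a and 0.43 for Tgfbr3. The lower call of Fst with that centring depends on where the length groups were cut. A fold of 2 left 0 higher genes of the 10, and 456 higher and 348 lower genes in all. With at least 200 counts 0 of the 10 genes were lower, because Inhba has fewer. The seed search gave the same 2 genes over every coding transcript. No paired analysis was possible because each condition has 1 library. Depth limits Inhba, Inha and Acvr2b most, and with 1 library per condition the variation between cultures is unknown, so no count of genes here measures it. The pathway lists with that centring, an alternative chosen after seeing the data, gave 1 higher and 1 lower receptor, 0 lower antagonists, 2 higher and 0 lower Smad regulators, and 2 lower targets. Length, also added then for the ratios within a library, took the factor for Inha to the β subunits from 2.04 to 1.42. It also put the interval for Fst to the β subunits (0.684 to 0.955) clear of equality. Both results depend on where the length groups were cut.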
